A study of Caenorhabditis elegans with 20 samples.

Results

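The genes described here encode the subunits of the proteasome in the nematode Caenorhabditis elegans. They were taken as every gene in the deposited tables whose WormBase symbol is pas-, pbs-, rpn- or rpt- followed by a number. This gave 33 of 46778 genes, of which 14 encode the core particle (7 pas genes and 7 pbs genes) and 19 the regulatory particle (13 rpn genes and 6 rpt genes). All 33 passed the filter on low values and were among the 15737 genes tested.

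Total RNA was sequenced from synchronised day 1 adults of 5 strains, with 4 libraries per strain. The strains were the wild type N2, the pgrn-1(-) strain CF3050, called the null here, and the strains AWK33, AWK43 and AWK107, which carry pgrn-1(-) together with granulin 1(+), granulin 2(+) or granulin 3(+). The gene pgrn-1 encodes progranulin, a secreted protein that is cut into granulins, so the design asks what each granulin does to the transcriptome when progranulin is absent. Each granulin was carried by 1 strain, and the labels give neither the promoter of the granulin nor whether a strain's 4 libraries were grown separately, and the spread behind every p-value is that between these libraries, possibly a technical one. Replicates are numbered 1 to 4 in accession order. The group label gives the name AWK33 to all 3 granulin strains, so groups were taken from the strain label. Sample names of the null and granulin 2 start with the letters E to H, those of the other 3 strains with A to D. No source used here explains the letters, so the null against the wild type, granulin 1 and granulin 3 against the null, and granulin 2 against the wild type cannot be told apart from a difference between the letter sets.

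The proteasome degrades proteins that carry chains of ubiquitin. Its barrel-shaped core particle is built of outer alpha rings, from the pas genes, that gate the entrance, and inner beta rings, from the pbs genes, in which PBS-1, PBS-2 and PBS-5 carry the caspase-like, trypsin-like and chymotrypsin-like activities. The regulatory particle caps the core. Its rpt subunits form a ring of ATPases that unfolds substrates, and its rpn subunits bind ubiquitin, remove it and hold the cap together. In C. elegans proteasome genes are known to be driven as a group by the transcription factor SKN-1 when proteasome activity is low.

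Libraries held 48279370 to 128776517 recovered reads, and proteasome genes took 0.211% to 1.02% of them. In the plots and values that follow, a level is in scaled CPM, which is CPM (depth-normalised counts) with library sizes scaled by trimmed means, or in log2 of that value with a prior count of 2. The pgrn-1 level went with the labels: it was 10.7 to 36.9 scaled CPM in the wild type, 0.0984 to 0.356 in the null, and 118 to 1035 over the 3 granulin strains. This level cannot show which granulin a strain carries. Granulin 1, at 221 to 1035, overlapped with granulin 2, at 118 to 250, and with granulin 3, at 281 to 419. Some libraries stood apart. Ribosomal RNA took more than 20% of reads in 4 libraries: 52.7% in replicate 3 and 25.0% in replicate 4 of granulin 2, 44.8% in wild type replicate 4 and 25.9% in granulin 1 replicate 3. The share was 0.45% to 14.5% in the other libraries. A length slope, the slope of a library's deviation from the mean of all libraries on log2 exon length over protein-coding genes, was lowest in granulin 1 replicate 3 (-0.82), and the 4 next lowest were granulin 2 replicate 2, granulin 3 replicate 2, null replicate 1 and granulin 3 replicate 3. The samples are whole animals, so fewer cells of a type and less RNA per cell cannot be told apart.

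On the build ce11, with the annotation of Ensembl release 115, 10 of the 33 genes lay on chromosome I, 7 on II, 8 on III, 3 on IV and 5 on V, and none on X, which held 14.2% of the protein-coding genes tested. Core particle genes were short, with merged exon lengths of 801 to 1059 bases and a median of 880.5. Regulatory particle genes ran from 855 bases to 3171 bases with a median of 1493, and the longest were rpn-1 and rpn-2, which encode the large scaffold subunits of the base of the cap. For 10 members an exon shared bases with a gene on the opposite strand, from 4 bases in pas-7 to 394 bases in rpn-7, and pbs-7 shared 70 bases with a gene on its own strand. The library kit keeps strand, but the sources used here do not give the strand setting of the counting, so reads in these shared bases may have been counted for either gene.

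Per kilobase of exon, the core genes had the higher median level, and the particles overlapped gene by gene; this difference was not tested. In the wild type the median level was 203 scaled RPKM (scaled CPM per kilobase) over the core particle genes and 143 over the regulatory particle genes. The ATPase gene rpt-1 was 4th of all 33 members at 257 ± 101, and the core gene pbs-2 was 23rd at 147 ± 11.4. The alpha 5 gene pas-5 was highest at 377 ± 71.5 scaled RPKM (SD, n = 4), followed by the caspase-like beta 1 gene pbs-1 at 333 ± 65.9 and the beta 4 gene pbs-4 at 290 ± 45.7. These neighbours in the order did not differ beyond their spread. The lowest was rpn-6.2, a paralog of the lid subunit gene rpn-6.1, at 6.80 ± 0.656 scaled RPKM, against 124 ± 42.4 for rpn-6.1. No source used here says how reads that fit both paralogs were assigned. Without rpn-6.2, the highest and the lowest gene of the wild type, pas-5 and rpn-10, were 4.77-fold apart. The gene pas-5 was the highest and rpn-6.2 the lowest of the 33 in each of the 5 strains.

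**Figure D1:**
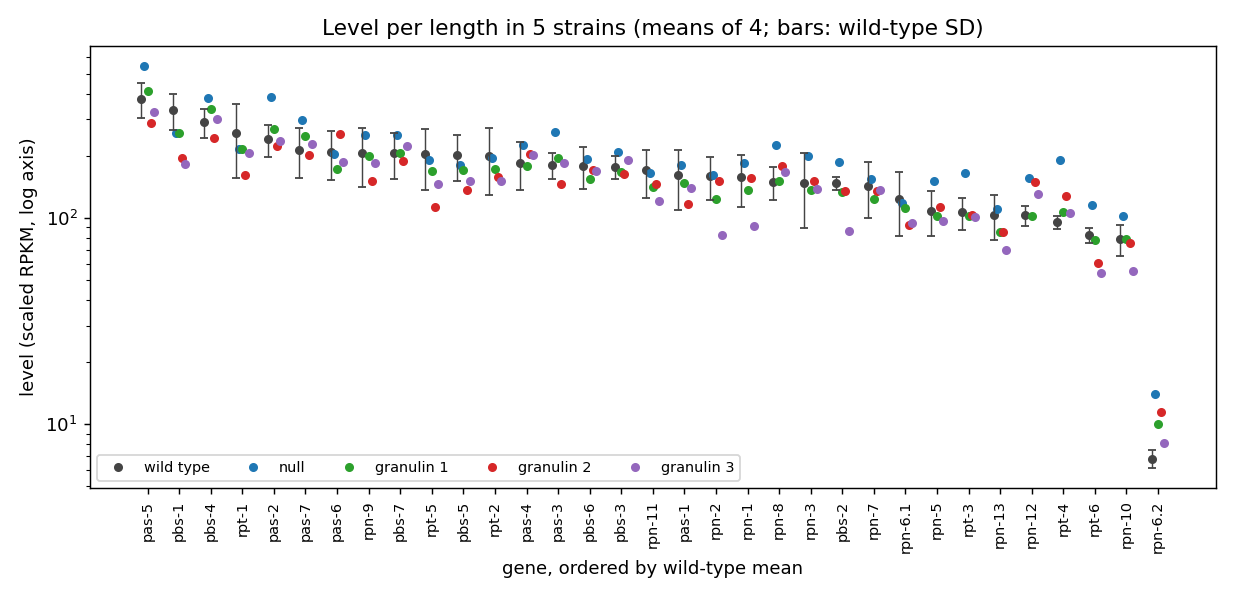
Mean level of each proteasome gene in scaled RPKM (log axis) in the 5 strains, ordered by the wild-type mean; each point is the mean of 4 libraries and the bars are the wild-type SD. All genes other than rpn-6.2 lie between 79.1 and 377 scaled RPKM in the wild type, and rpn-6.2 lies at 6.80.

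Averaged over the genes of a particle, the null had the highest mean, and the ranges of most strains overlapped. The mean log2 level of the 14 core genes was 7.56 ± 0.24 in the wild type (SD, n = 4), 7.81 ± 0.19 in the null, 7.46 ± 0.52 in granulin 1, 7.31 ± 0.12 in granulin 2 and 7.32 ± 0.32 in granulin 3. For the 19 regulatory genes it was 7.46 ± 0.39 in the wild type, 7.76 ± 0.48 in the null, 7.15 ± 1.08 in granulin 1, 7.25 ± 0.61 in granulin 2 and 7.02 ± 0.78 in granulin 3. In the core particle the 4 granulin 2 libraries, at 7.16 to 7.43, all lay below the 4 null libraries, at 7.55 to 7.98, and in the regulatory particle these 2 strains overlapped, at 6.58 to 7.86 and 7.05 to 8.10. These means are a description and were not tested. The spread within strains was larger for the regulatory particle, with granulin 1 running from 5.55 to 7.95.

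**Figure D2:**
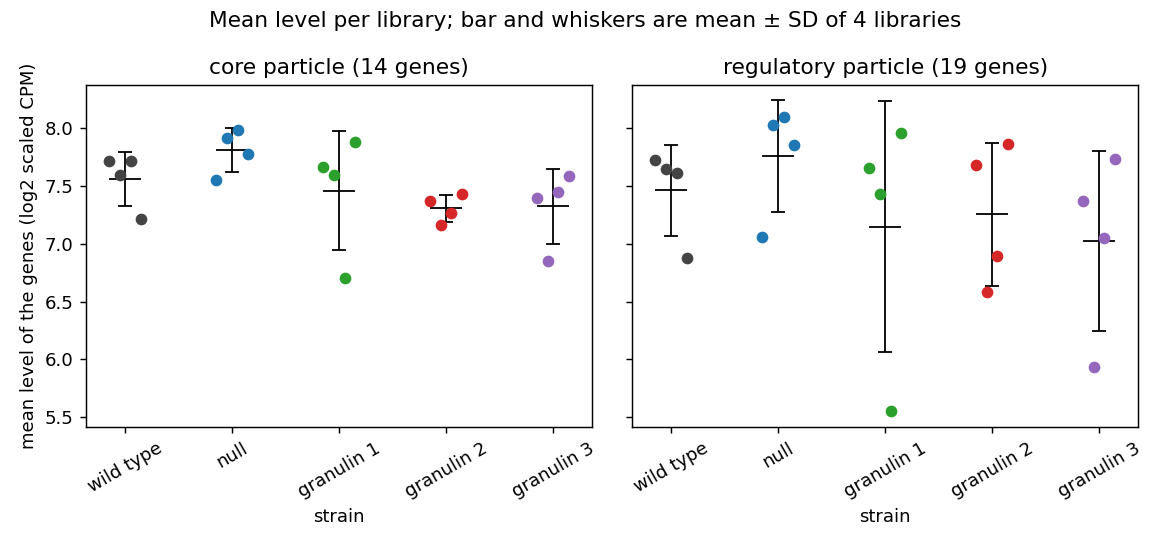
Mean log2 scaled CPM of the core particle genes (left) and of the regulatory particle genes (right) in every library; bars and whiskers are the mean ± SD of 4 libraries. Granulin 1 replicate 3 is the lowest point of both panels, at 6.71 for the core and 5.55 for the regulatory particle.

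Gene by gene, 1 member in 1 comparison passed the test, which was limma on log2 levels with Benjamini-Hochberg adjustment over all genes and a threshold of 0.05. This was pas-5, which fell in granulin 2 against the null. In a test of any difference among the 5 strains none of the 33 was called by limma, or by its voom variant, while 21.5% of all genes were. At an unadjusted p under 0.05 that test held 1 member, rpn-6.2, against 31.8% of all genes, and its limma adjusted p was 0.0574. The other adjusted p-values ran from 0.227 for pas-5 to 0.923 for rpn-7.

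Among the alpha ring genes, pas-5 (chromosome I, 10566350 to 10567300, plus strand) had in replicates 1 to 4 of the null 612, 416, 414 and 421 scaled CPM, and in granulin 2 it had 202, 352, 272 and 163. In the wild type it had 305, 261, 317 and 407, in granulin 1 it had 296, 357, 328 and 425, and in granulin 3 it had 209, 357, 279.7 and 274. All granulin 2 and all granulin 3 values lay below the lowest null value, all wild-type values lay below it too, and granulin 1 overlapped with the null through replicate 4. Between granulin 2 and the null pas-5 fell by 0.95 ± 0.33 on the log2 scale (SE; limma adjusted p 0.0434). The call was lost when null replicate 1 (adjusted p 0.130), 3 (0.0711) or 4 (0.0729), or granulin 2 replicate 1 (0.118), 3 (0.0659) or 4 (0.143), was left out, and also without the libraries with over 20% ribosomal RNA (0.133), on the deposited scale (0.153), with protein-coding genes only (0.0536) and with only the 2 strains in the fit (0.073). Over the settings that leave out 1 library the log2 fold change ran from -1.20 to -0.77.

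The other alpha ring genes also had fold changes below 0 in granulin 2 against the null, apart from pas-6, without passing. The genes pas-2 and pas-3, chosen after their values were seen, did not overlap between granulin 2 and the null. Nor did pas-7, at 169 to 246 scaled CPM in granulin 2 and 265 to 314 in the null. Of all genes, 9.48% lay apart in this direction. For pas-2 the values were 149, 257, 222 and 123 scaled CPM in granulin 2 and 397, 291, 310.0 and 298 in the null (log2 fold change -0.84 ± 0.32; limma adjusted p 0.0703). For pas-3 they were 137, 121, 135 and 130.3 in granulin 2 and 218, 234, 272 and 211 in the null (-0.83 ± 0.30; limma adjusted p 0.0521). Both pas-2 and pas-3 encode structural subunits of the ring without a catalytic site.

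None of the 3 catalytic beta ring genes was called by limma in any of the 8 comparisons with all libraries and no covariate in the fit. The trypsin-like subunit gene pbs-2 (chromosome I, 12967216 to 12968280, minus strand) had 136, 160.3, 142 and 155 scaled CPM in the wild type, 113, 238, 218 and 183 in the null and 135, 142, 51.3 and 212 in granulin 1. It had 195, 35.7, 70.9 and 243 in granulin 2 and 128, 18.3, 21.4 and 182 in granulin 3. The wild-type values were close together, while granulin 3 split into a low pair, replicates 2 and 3, and a pair within the range of the other strains. The log2 fold change of pbs-2 in granulin 3 was -1.72 ± 0.69 against the null (limma adjusted p 0.116), -1.43 ± 0.69 against the wild type (0.254) and -1.13 ± 0.69 against granulin 1 (0.53). Without the 5 libraries of lowest length slope, which include that low pair, the values were -0.47, 0.048 and -0.06. Without granulin 3 replicate 2 they were -1.19, -0.90 and -0.60. Without granulin 3 replicate 4 the gene was called against the null, at -2.29 with an adjusted p of 0.0376, and with the length slope as a covariate it was called at -1.32 (limma adjusted p 0.0172).

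The caspase-like subunit gene pbs-1 (chromosome IV, 1708814 to 1709745, minus strand) had 289.5, 325, 284 and 198 scaled CPM in the wild type, 131, 272, 239.7 and 205 in the null and 267, 285, 87.4 and 207 in granulin 1. In granulin 2 the values were 218, 58.9, 102 and 260.3, and in granulin 3 they were 262, 47.2, 92.9 and 200.3. All 4 mutant strains overlapped with the wild type. Against the wild type its log2 fold change was -0.99 ± 0.54 in granulin 2 (limma adjusted p 0.259) and -1.13 ± 0.54 in granulin 3 (0.253). Without replicate 2 of the granulin strain these were -0.58 and -0.67, and without the 5 libraries of lowest length slope they were -0.57 and -0.23.

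For the chymotrypsin-like subunit gene pbs-5 (chromosome I, 14719167 to 14720477, minus strand) the values were 250.0, 233, 235 and 134 scaled CPM in the wild type, 124, 219, 233 and 186 in the null and 226, 196, 93.8 and 206 in granulin 1. Granulin 2 had 177, 86.5, 118 and 195, and granulin 3 had 199, 63.0, 186 and 188. In the wild type, granulin 1 and granulin 3 a single library was far below the other 3, and the strains overlapped. The log2 fold change in granulin 2 against the null was -0.43 ± 0.42 (limma adjusted p 0.55), and -0.21 without granulin 2 replicate 2.

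In the regulatory particle, the paralog rpn-6.2 (chromosome III, 8999817 to 9001999, minus strand) had the smallest adjusted p in 4 comparisons, at a low level. Its values were 9.42, 10.1, 11.6 and 11.3 scaled CPM in the wild type and 18.5, 22.1, 24.1 and 22.8 in the null. They were 11.8, 10.8, 13.2 and 26.8 in granulin 1, 17.2, 20.7, 18.5 and 14.5 in granulin 2, and 9.09, 9.57, 11.6 and 19.9 in granulin 3. The null and granulin 2 libraries all lay above the wild type, granulin 1 and granulin 3 lay near the wild type apart from replicate 4 of each, and the lowest library still held 266 reads of the gene.

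The log2 fold change of rpn-6.2 was 1.04 ± 0.29 in the null against the wild type (limma adjusted p 0.213), 0.74 ± 0.29 in granulin 2 against the wild type (0.0924), 0.46 ± 0.29 in granulin 1 against the wild type (0.752) and -0.87 ± 0.29 in granulin 3 against the null (0.0552). The strains above the wild type are those with the letters E to H and cannot be told apart from them. Without granulin 1 replicate 4 the value in granulin 1 was 0.17. Without granulin 3 replicate 4 the value in granulin 3 was -1.11, and it was called with a limma adjusted p of 0.0185. The test over 5 strains called the gene without granulin 1 replicate 3 (adjusted p 0.0429), without granulin 1 replicate 4 (0.0138) or without granulin 3 replicate 4 (0.0164).

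The main paralog rpn-6.1, whose overexpression is known to extend the life of C. elegans, did not show this pattern. This gene (chromosome III, 6959110 to 6962001, minus strand) had 267, 220.2, 223 and 104 scaled CPM in the wild type, 96.4, 228, 247 and 204 in the null and 259, 194, 50.5 and 229 in granulin 1. It had 202, 77.5, 118 and 212 in granulin 2 and 203, 53.3, 168 and 194 in granulin 3. Every strain had at least 1 library well below its highest, and all strains overlapped. Its log2 fold change in the null against the wild type was -0.07 ± 0.55 (limma adjusted p 0.988). A test of the difference between the paralogs was not run.

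The ATPase gene rpt-4 (chromosome II, 42207 to 46216, minus strand) had 149, 128, 147 and 133 scaled CPM in the wild type and 223, 295, 337 and 262 in the null. It had 148, 135, 42.9 and 301 in granulin 1, 192, 191, 168 and 191 in granulin 2 and 115, 94.8, 167 and 237 in granulin 3. All null values lay above the wild-type values and all granulin 2 values lay between these strains, while granulin 1 and granulin 3 spread over both. The log2 fold change was 0.99 ± 0.44 in the null against the wild type (limma adjusted p 0.441), -1.12 ± 0.44 in granulin 1 against the null (0.546) and -0.93 ± 0.44 in granulin 3 against the null (0.191). Without granulin 1 replicate 3 the value in granulin 1 was -0.60. An exon of rpt-4 shares 103 bases with rpoa-49 on the opposite strand.

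The ubiquitin receptor gene rpn-10 (chromosome I, 10730712 to 10732424, minus strand) had 112, 109.6, 111 and 75.8 scaled CPM in the wild type, 88.5, 151, 155 and 131 in the null and 111, 101, 50.4 and 145 in granulin 1. In granulin 2 it had 138, 35.6, 62.2 and 154, and in granulin 3 it had 94.4, 16.4, 41.9 and 131. As for pbs-2, replicates 2 and 3 of granulin 2 and of granulin 3 were low. Its log2 fold change in granulin 3 against the null was -1.25 ± 0.55 (limma adjusted p 0.162). It was -0.68 without granulin 3 replicate 2 and -0.38 without the 5 libraries of lowest length slope. With the length slope as a covariate it was called, at -0.93 (limma adjusted p 0.0353).

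The gene of the deubiquitinase RPN-11, which cuts ubiquitin chains from substrates (chromosome II, 4043055 to 4044546, minus strand), had 249, 235, 226 and 128 scaled CPM in the wild type, 113, 247, 252 and 204 in the null and 227, 196, 63.2 and 210.0 in granulin 1. Granulin 2 had 245, 80.1, 105 and 291, and granulin 3 had 197, 45.2, 151 and 203. All strains overlapped, and the log2 fold change in granulin 3 against the null was -0.60 ± 0.54 (limma adjusted p 0.542). It was -0.10 without granulin 3 replicate 2.

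Against the wild type, the null had higher values for most proteasome genes, but limma called none of the 33 (0.197% of all genes were called). The median log2 fold change was 0.30 over the core and 0.35 over the regulatory particle genes, with 24 of 33 above 0, beside -0.003 over all genes. At an unadjusted p under 0.05 limma held 3 members, pas-2, rpt-4 and rpn-6.2, all higher, against 4.59% of all genes higher and 10.3% in either direction, and voom called none. For 6 members (pas-2, pas-3, pas-5, rpn-8, rpt-4 and rpn-6.2) all null libraries lay above all wild-type libraries, against 4.73% of all genes. Without wild type replicate 4, 19 of 33 were above 0 and the median over the members was 0.12. Without null replicate 1, 1 of 33 was below 0 and the median was 0.39. Over the fits that leave out 1 library of these strains the median ran from 0.12 to 0.43. It was 0.38 without the 5 libraries of lowest length slope and 0.16 without those with over 20% ribosomal RNA. On the deposited scale, which has no scaling between libraries, the median of all genes was 0.40, and 24 of 33 members lay above it.

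In all 3 granulin strains most members lay below the null. These comparisons share the null libraries, so their directions are not separate evidence. In granulin 1, limma called 0 of 33 members (0.47% of all genes) and voom 0, and 2 members, rpt-4 and rpn-12, had an unadjusted p under 0.05, both lower, against 2% of all genes lower and 7.47% in either direction. All 33 fold changes were below 0, beside 47.3% of all genes, with medians of -0.39 over the core and -0.58 over the regulatory particle. Without granulin 1 replicate 3, 20 of 33 were below 0 and the median over the members was -0.11.

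In granulin 2, limma called 1 member, pas-5, against 21.6% of all genes, or 4.18% of all genes in the lower direction. At an unadjusted p under 0.05 there were 4 members, pas-2, pas-3, pas-5 and pbs-4, all lower, against 8.69% of all genes lower and 31.3% in either direction. For 6 members (pas-2, pas-3, pas-5, pas-7, rpn-9 and rpt-4) all granulin 2 libraries lay below all null libraries, against 9.48% of all genes. The fold change was below 0 for 32 of 33 members, all but pas-6, beside 48.0% of all genes, with medians of -0.58 over the core and -0.44 over the regulatory particle. On the deposited scale the median of all genes was -0.18, and 32 of 33 members lay below it. Without granulin 2 replicate 2, 29 of 33 were below 0, with a median of -0.26 over the members and -0.22 over the regulatory particle. Without null replicate 2, limma called pas-2, pas-3 and pas-5, and without granulin 2 replicate 2 it called pas-2 and pas-5. With all libraries 21.6% of all genes were called, and the share in these smaller fits is not given here.

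In granulin 3, limma called 0 of 33 (12.7% of all genes) and voom 0. There were 7 members with an unadjusted p under 0.05, namely pas-2, pas-5, pbs-2, rpn-6.2, rpn-10, rpt-4 and rpt-6, all lower, against 6.01% of all genes lower and 24.3% in either direction. Both pas-2 and pas-5 had all granulin 3 libraries below all null libraries, against 6.23% of all genes. All 33 fold changes were below 0, beside 46.2% of all genes, with medians of -0.37 over the core and -0.60 over the regulatory particle; on the deposited scale, with a median of all genes of 0.43, 23 of 33 were below 0 and all 33 were below that median. Without granulin 3 replicate 2, 26 of 33 were below 0 and the median over the members was -0.29. Without granulin 3 replicate 4, limma called 3 members, pbs-2, rpn-6.2 and rpt-6. With all libraries 12.7% of all genes were called, and the share without this library is not given here.

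**Figure D3:**
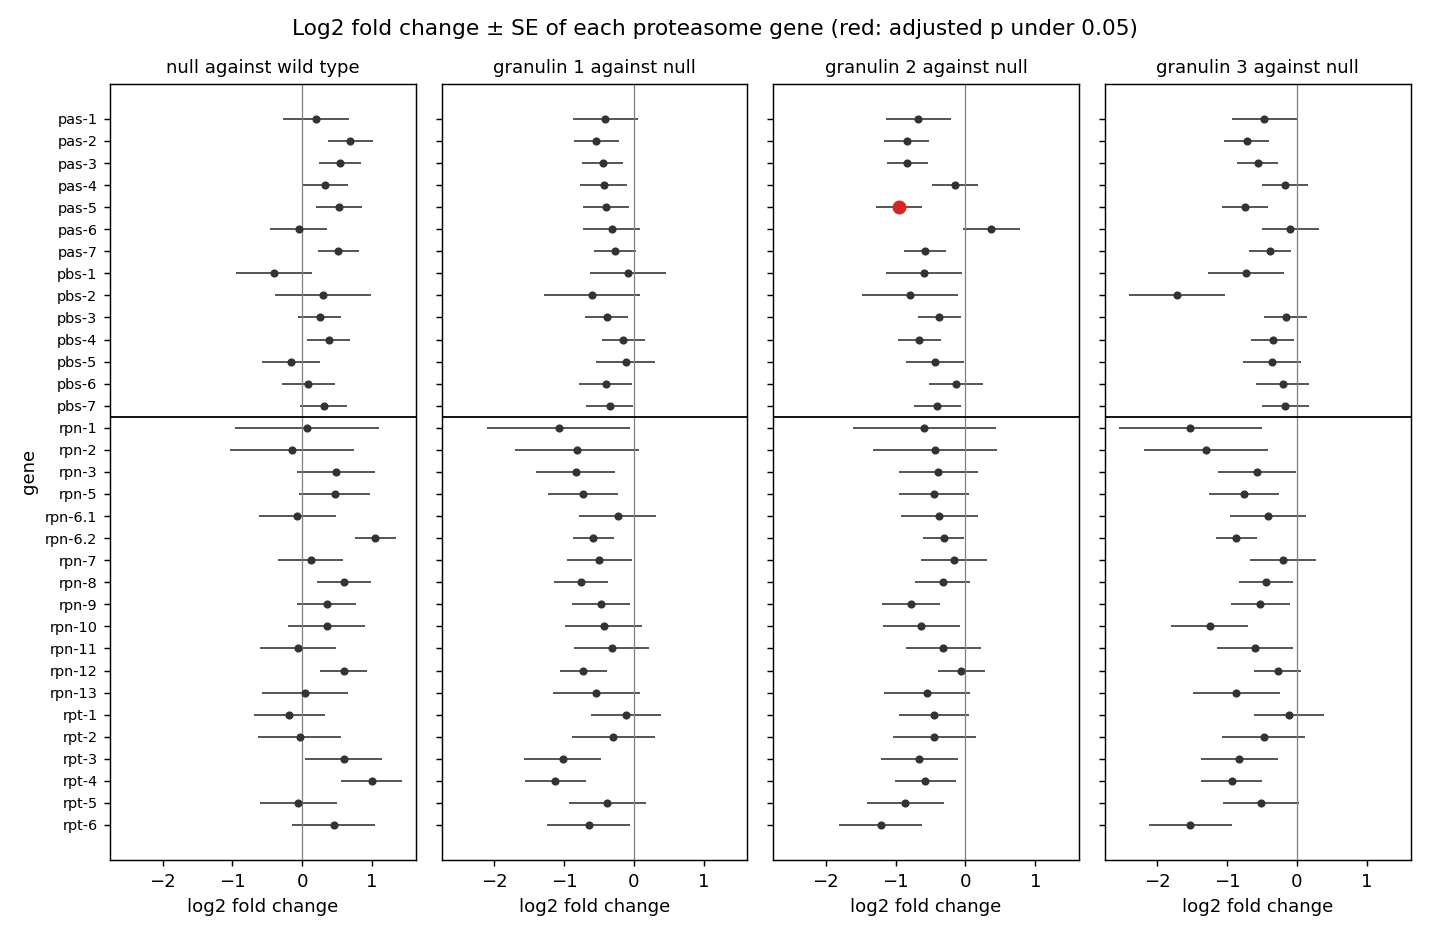
Log2 fold change ± SE of each proteasome gene in 4 comparisons (first strain minus second), with core particle genes above the line and regulatory particle genes below it; the 3 comparisons against the null share its libraries. The called gene, pas-5 in granulin 2 against the null at -0.95, is red.

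The comparisons against the wild type and between granulin strains gave no called member. In granulin 1 against the wild type limma called 0 of 33 (0.324% of all genes), voom 0, and 0 had an unadjusted p under 0.05 against 8.98% of all genes. In granulin 2 limma called 0 (18.3%), voom 0, and 1, rpn-6.2, had an unadjusted p under 0.05 and was higher, against 20.3% of all genes higher and 27.8% in either direction. For rpn-6.2, rpn-12 and rpt-4 all granulin 2 libraries lay above all wild-type libraries, against 16.4% of all genes.

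In granulin 3 against the wild type limma called 0 (11.2%), voom 0, and 0 had an unadjusted p under 0.05 against 19.9% of all genes. For granulin 3 against granulin 1, strains that share the letters A to D, limma called 0 (5.58%), voom 0, and 0 had an unadjusted p under 0.05 against 15% of all genes. The median log2 fold change over the core and the regulatory particle was -0.13 and -0.31 in granulin 1, -0.22 and -0.37 in granulin 2, and -0.08 and -0.30 in granulin 3 against the wild type, and -0.12 and -0.13 between granulin 3 and granulin 1. On the deposited scale the median of all genes in these 4 comparisons was 0.46, 0.20, 0.81 and 0.36, and 27, 25, 24 and 22 of the 33 members lay below it. Without granulin 1 replicate 3 the share of members below 0 in granulin 1 against the wild type went from 27 of 33 to 1 of 33. Without granulin 2 replicate 2 the regulatory median in granulin 2 against the wild type was 0.10. Without granulin 3 replicate 2, 15 of 33 members were below 0 against the wild type, with a median of 0.05 over the members, and 10 of 33 against granulin 1, with a median of 0.25. The median in granulin 3 against granulin 1 was also above 0 without granulin 1 replicate 1 (0.07) or 4 (0.05), and it was -0.45 without granulin 1 replicate 3.

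Precision differed between the particles. The SE of a fold change had a median of 0.33 over the core and 0.55 over the regulatory particle, and the widest, 1.02, was that of rpn-1. The pooled SD of the log2 level within strains was 0.38 at the median over the core, 0.80 over the regulatory particle and 0.66 over all genes tested. It was smallest for the alpha 7 gene pas-7 at 0.27 and largest for rpn-1 at 1.61, above 99.0% of the genes tested, with rpn-2 next at 1.38; these genes were chosen after their values were seen.

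Single libraries carried much of this spread. For rpn-1 the level was 545, 656, 487 and 316 scaled CPM in the wild type, 180.4, 769, 729 and 654 in the null, 520.2, 466, 18.9 and 731 in granulin 1, 770.3, 91.5, 199 and 915 in granulin 2, and 457, 63.4, 57.8 and 574 in granulin 3. Each mutant strain thus held values that were several-fold apart and overlapped with the wild type. Of the 33 members, 29 had their lowest granulin 1 value in replicate 3, against 41.1% of all genes. Null replicate 1 was the lowest of its strain for 28 members (36.7% of all genes), wild type replicate 4 for 27 (36.9%), granulin 3 replicate 2 for 23 (35.0%) and granulin 2 replicate 2 for 21 (32.8%).

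**Figure D4:**
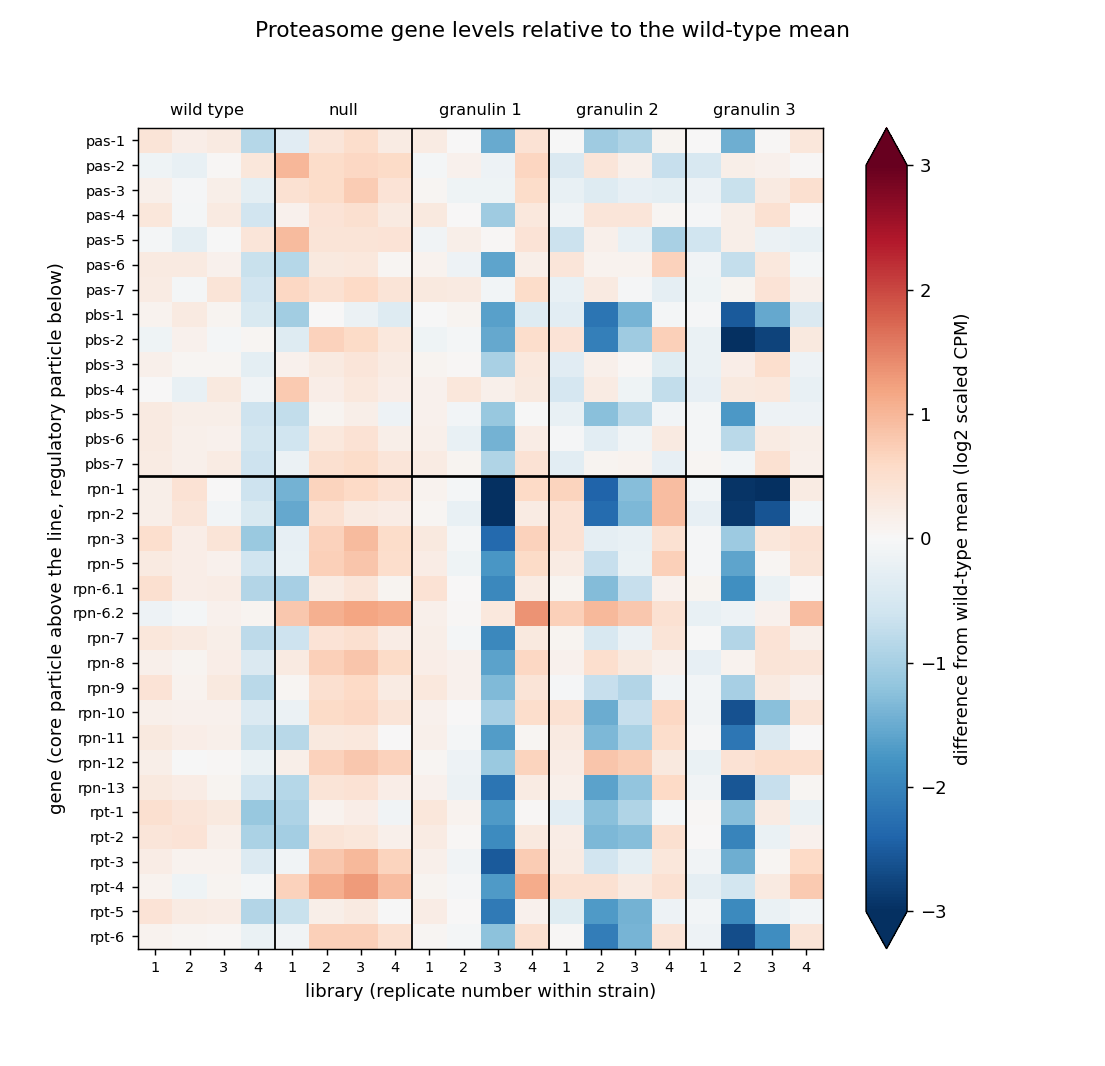
Log2 level of each of the 33 genes in each of the 20 libraries minus the wild-type mean of that gene (colour scale in log2 units, ends clipped). Blue marks values below the wild-type mean, not the lowest library of a strain. In granulin 1 replicate 3, 29 of 33 members were the lowest of the strain. Null replicate 1 was the lowest of its strain for 28 members, and its core mean was 7.55, beside 7.56 over the wild type.

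In granulin 1 replicate 3 the level of a member minus the mean of the other 3 libraries had a median of -1.15 over the core and -2.07 over the regulatory particle, beside 0.06 over all genes. Longer members lay lower there: Pearson's r of log2 exon length with this difference was -0.80 over the 33 genes and -0.64 over the 31 genes shorter than 3000 bases, a description of genes in 1 library. The mean log2 level of the regulatory particle minus that of the core ran from -1.15 in this library to 0.43 in granulin 2 replicate 4. The 7 libraries with the lowest length slopes were the 7 with the lowest values of this difference. Core and regulatory genes differ in length, so a difference between the particles and a length trend of the library cannot be told apart.

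**Figure D5:**
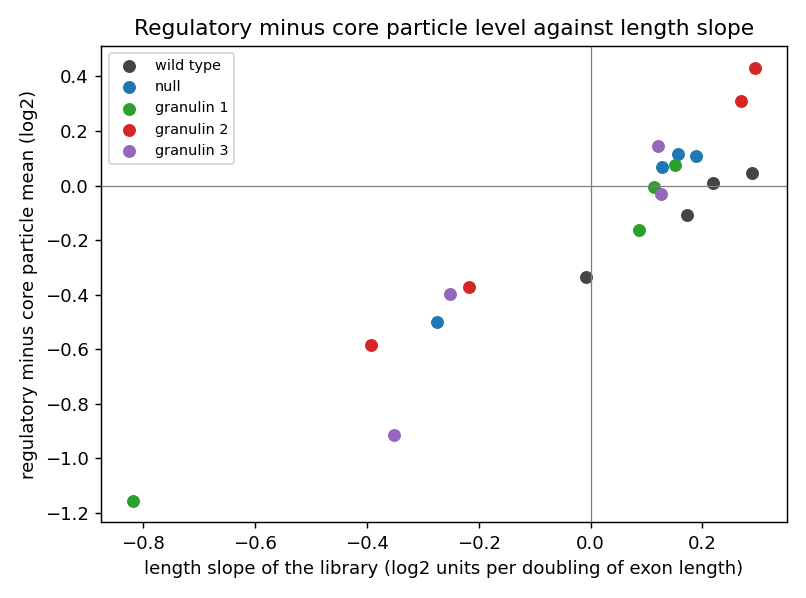
Mean log2 level of the regulatory particle genes minus that of the core particle genes against the length slope, 1 point per library. The difference is -1.15 at the lowest slope, -0.82, and 0.43 at the highest, 0.29.

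Germline and oocyte markers were low in the same libraries, but not in these alone. The summed level of 7 germline markers was 377 scaled CPM in granulin 1 replicate 3 against 2515 to 3147 in the other 3, 954 in null replicate 1 against 2956 to 3088, and 623 in granulin 3 replicate 2 against 908 to 2748. It was 1884 in wild type replicate 4 against 3025 to 3819 and 882 in granulin 2 replicate 2 against 1411 to 4278. The 13 oocyte and eggshell markers had summed levels between 7270 and 23714 in the wild type, between 5664 and 20483 in the null, between 5422 and 18381 in granulin 1, between 2693 and 24764 in granulin 2, and between 2529 and 14812 in granulin 3. Both sums were also low in granulin 3 replicate 3, at 908 and 4599, and in granulin 2 replicate 3, at 1411 and 4599. Granulin 3 replicate 3 was the lowest of its strain for 1 member and the highest for 12. Granulin 2 replicate 3 was the lowest of its strain for 2 members and the highest for 2. No marker of these lists was at 0 in any library, and their part in the proteasome levels was not tested.

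Sperm genes were higher in the comparison in which pas-5 was called, and also in comparisons without a called member. The 31 msp genes, which encode the major sperm proteins, had sums between 221 and 563 scaled CPM in granulin 2 and between 8.04 and 41.0 in the null, and 28 of the 28 tested were called higher by limma, beside 17.5% of all genes. Their sums ran from 31.6 to 412 in granulin 3, from 17.9 to 64.1 in granulin 1 and from 3.73 to 17.5 in the wild type, with 1 to 7 of the 31 at 0 in a library. Of the 28 tested, limma also called 28 higher in granulin 2 and 28 in granulin 3 against the wild type. It called 19 higher in granulin 3 against the null. The shares of all genes called higher in these comparisons were 15.5%, 10.7% and 11.2%. The 6 vitellogenin genes, markers of the adult intestine, had no gene at 0 in any library, and of the 156 collagen genes 8 to 26 were at 0; the 2 lists had summed levels of 2390 to 360967 and 5751 to 65668 scaled CPM. In granulin 2 against the null limma called 0 of 6 vitellogenins and 58 of the 121 collagens tested, 57 of them higher, beside 21.6% of all genes called and 17.5% called higher. The part of these cell types in the level of pas-5 was not tested.

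Beyond the subunits, genes that work with the proteasome were mostly not called either. Of 11 associated factors 10 were found and tested. The base assembly chaperone gene psmd-9 fell in granulin 2 by 1.67 ± 0.40 (limma adjusted p 0.00435) and in granulin 3 by 1.28 ± 0.40 (0.0420) against the null, and the activator gene psme-3 rose in granulin 2 against the wild type by 1.03 ± 0.30 (0.0179). These are 1 of 10 genes in each comparison, in which 21.6%, 12.7% and 18.3% of all genes were called. The list's median log2 fold change was -0.06 in granulin 2 and -0.29 in granulin 3 against the null. None of the 6 genes that control proteasome gene expression, among them skn-1, ddi-1 and png-1, was called by limma in any of the 8 comparisons, with medians between -0.36 and 0.02. In these comparisons 0.197% to 21.6% of all genes were called.

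Of 11 genes for ubiquitin, its activation and unfolding, limma called 1 in 1 comparison: chn-1, the worm ortholog of the ubiquitin ligase CHIP, fell by 0.98 ± 0.34 in granulin 2 against the null (adjusted p 0.0420). That is 1 of 11 genes in a comparison in which 21.6% of all genes were called. Of 22 ubiquitin-conjugating enzyme genes, ubc-24 rose in granulin 2 by 2.25 ± 0.53 (limma adjusted p 0.00362) and in granulin 3 by 1.86 ± 0.53 (0.0246) against the null. It also rose against the wild type, by 2.83 (0.000402) and 2.44 (0.00298). In granulin 2 and granulin 3 against the null and granulin 3 against the wild type, ubc-24 was the 1 gene of the 22 called. The shares of all genes called there were 21.6%, 12.7% and 11.2%. In granulin 2 against the wild type let-70 fell by 1.53 ± 0.52 (limma adjusted p 0.0477), ubc-12, which conjugates the ubiquitin-like protein NEDD8, fell by 1.08 ± 0.35 (0.0370), and ubc-8 fell by 1.10 ± 0.30 (0.0110). The other 18 genes of this list were not called in that comparison, in which 18.3% of all genes were, and its median log2 fold change was -0.47.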

How the data were processed

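For each library the authors deposited log2 CPM values of 46778 genes. STAR, HTSeq, edgeR, limma and the build ce11 are listed, without versions or settings, per the submitters' processing notes; the labels' protocols give a Qiagen miRNeasy extraction and a stranded total RNA kit. The linear values were whole multiples of a step, from which reads were recovered; 7 values were not whole within 0.01 reads. Symbols and coordinates came from Ensembl release 115, which held 46603 of the IDs, 43818 with a symbol. Because the unit is log2, no count test was run.

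Genes with at least 0.177 CPM in 4 libraries and 15 reads in all were kept. Scaling used trimmed means of M values (30% of ratios, 5% of levels). All 20 libraries were fitted together in limma 3.58.1 (R 4.3.3) with a mean-variance trend, robust moderation and a prior count of 2, with p-values adjusted over 15737 genes. Scripts were tested on simulated data. RPKM divides scaled CPM by merged exon length.

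Per-library values are given for members called in any comparison, for the smallest adjusted p of each comparison and for genes chosen by role. Members, lists and tests were chosen with earlier results of these data known. Every member held at least 266 reads in every library, and errors are those between libraries. Alternatives were voom, the deposited scale, prior counts of 0.5 and 10, no filter, protein-coding genes only, only the strains compared, the length slope as a covariate, and leaving out libraries.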

Additional observations from a re-analysis of the deposited data

Results flagged for a closer look

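In groups of 4 libraries, a library was counted as far from the others where its gap to the nearest of them exceeded the 95% critical value of Dixon's test, and chance does this in about 1 in 20 groups. Over all members this held in 30 of 165 groups of a gene and a strain (18.2%). The far library was wild type replicate 4 in 11 of them, granulin 1 replicate 3 in 9, null replicate 1 in 4, granulin 3 replicate 2 in 4, and granulin 2 replicate 3 and granulin 3 replicate 1 in 1 each. All members were measured in the same libraries, so the groups are not independent and 18.2% is no test against chance. The share among all genes is not given here.

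Among the values given per library, pas-5 stood high in null replicate 1, at a log2 level of 9.26. The chymotrypsin-like subunit gene pbs-5 stood low in 3 strains, at 7.07 in wild type replicate 4, 6.55 in granulin 1 replicate 3 and 5.98 in granulin 3 replicate 2. The lid gene rpn-6.1 stood low in granulin 3 replicate 2, at 5.74. For the ubiquitin receptor gene rpn-10 the far library was wild type replicate 4, at 6.24. The deubiquitinase gene rpn-11 stood low in wild type replicate 4, at 7.0, and in granulin 1 replicate 3, at 5.98. For the ATPase gene rpt-4 the far library was granulin 2 replicate 3, at 7.39. The mean log2 level of the regulatory particle genes stood low in wild type replicate 4, at 6.88.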

How the results depend on the processing

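The number of members called in granulin 2 against the null, 1 as reported, was 2 with voom (21.6% of all genes) and 3 with no filter (16.8%). It was 3 without the 5 libraries of lowest length slope (27.1%) and 7 with the length slope as a covariate. It was 0 on the deposited scale (14.3%) and 0 without the libraries with over 20% ribosomal RNA (17%). With the letter of the sample name as a replicate block it was 0 (16%). Leaving out 1 library gave 0 to 3. The shares of all genes called in the fits without 1 library are not given here. In granulin 3 against the null the number was 1 with no filter (6.92% of all genes) and 1 with only the 2 strains (14.5%). It was 2 without the libraries rich in ribosomal RNA (18.4%) and 8 with the length slope, against 0 as reported, and 0 to 3 without 1 library. The length slope as a covariate gave 1 in the null against the wild type (rpn-6.2) and 1 in granulin 2 against the wild type (rpn-6.2, beside 31.4% of all genes). It gave 1 in granulin 3 against granulin 1 (pbs-2, beside 12.8% of all genes) and 6 in the test over 5 strains. That test gave 1 with protein-coding genes only (19% of all genes) and 0 to 1 without 1 library. In the other comparisons leaving out 1 library gave 0 to 0. With this covariate the share of all genes called went from 21.6% to 34.1% in granulin 2 against the null, from 12.7% to 23% in granulin 3 against the null (7.7% lower, the direction of all 8 members), from 0.197% to 1.89% in the null against the wild type and from 21.5% to 40.9% in the test over 5 strains; the cause was not tested. The fold change of pbs-2 in granulin 3 against the wild type reversed from -1.43 to 0.048 without the 5 libraries of lowest length slope.

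The deviations of libraries that share a letter correlated between -0.59 and 0.58. Libraries with different letters were not compared in this way, so these values cannot decide whether the letters pair the samples. With the replicate block pas-5 in granulin 2 against the null had an adjusted p of 0.212, and 0 members were called in the 3 comparisons among the wild type, granulin 1 and granulin 3. The test over 5 strains could not be fitted with a block, because the letter sets share no letter. Prior counts of 0.5 and 10 changed no count of called members. Every member held at least 266 reads in a library, and the median SE of a fold change, 0.47 on the log2 scale, limits what 4 libraries per strain can show.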

Other observations

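In granulin 1 and granulin 3, the library with the letter D, replicate 4, was the highest of its strain for rpn-6.2 and rpt-4, a pattern chosen after the values were seen. Granulin 1 replicate 4 was the highest of its strain for 26 of the 33 members (22.0% of all genes). Granulin 3 replicate 4 was the highest for 15 (40.2% of all genes). Among the members, the highest value in these libraries was thus not particular to rpn-6.2 and rpt-4. For rpn-6.2 replicate 4 held 26.8 scaled CPM against 10.8 to 13.2 in the other granulin 1 libraries, and 19.9 against 9.09 to 11.6 in the other granulin 3 libraries. For rpt-4 it held 301 against 42.9 to 148 in granulin 1 and 237 against 94.8 to 167 in granulin 3. The wild-type library with the letter D did not stand high, with 11.3 scaled CPM of rpn-6.2 between 9.42 and 11.6 and 133 of rpt-4 between 128 and 149. The difference between strains was not tested.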
